A study of Mus musculus with 6 samples.

Results

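Of the genes that define or serve type 2 helper T cells (Th2 cells), 6 were measured in sorted Foxp3-lineage T cells that lacked Dicer and in heterozygous cells. They were Gata3, the cytokine genes Il4, Il5 and Il13, Nfil3 and the receptor gene Il4ra. The set was defined as 7 genes, and every array feature (probe set) with a single matching gene symbol in the platform annotation was taken. This gave 8 probe sets of 45101 in the table, 3 of them for Il4ra. No probe set in the annotation used here carries the symbol Il1rl1, the gene of the interleukin 33 receptor chain ST2, so that member was not analysed here.

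RNA came from CD4+YFP+ T cells sorted from mouse lymph nodes, with 3 KO arrays (FoxP3-GFP-hCre, ROSA26R-YFP, Dicerlox/lox) and 3 Het arrays (FoxP3-GFP-hCre, ROSA26R-YFP, Dicerwt/lox). Both groups carried the GFP-tagged Cre recombinase driven by Foxp3 and the ROSA26 reporter, which turns YFP on for good in a cell where Cre has acted. YFP therefore marks cells that have made Foxp3 at some time, including any that no longer do, and Het cells keep an intact Dicer copy. The arrays of each group bear the letters A, B and C. No label names separate animals or gives their age, so p-values measure only the spread between arrays, which may be technical. The arrays were alike in scale, with median intensities of 58.1 to 61.5, and the files give no detection calls, so a low reading does not separate a low level from none. In bulk RNA, fewer cells expressing a gene and less RNA per cell cannot be told apart.

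Th2 cells are the helper T cells of responses to worms and of allergy. Interleukin 4 binds a receptor built from the Il4ra chain, activates STAT6 and so raises GATA3, the factor that opens the linked Il4, Il13 and Il5 genes. Regulatory T cells also express GATA3, and unlike Th2 cells they normally keep the Th2 cytokine genes silent. Dicer cuts microRNA precursors into mature microRNAs. In mouse T cells the miR-24 and miR-27 families have been reported to restrain Il4 and Gata3, and miR-155 to restrain Maf, a further activator of Il4. The arrays do not measure these microRNAs. Their RefSeq sequences (GRCm38.p6) are shown because they are products of the deleted enzyme with reported links to the measured genes, with the seed, bases 2 to 8, in capitals.
miR-24-3p: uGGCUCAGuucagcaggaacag
miR-27a-3p: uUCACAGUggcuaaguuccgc
miR-27b-3p: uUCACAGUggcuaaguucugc
miR-155-5p: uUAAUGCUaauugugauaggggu
The miR-27 sequences share a seed, and the miR-24 and miR-155 seeds differ from it and from each other.

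In KO cells Il4 had the largest difference of the Th2 genes, with readings of 82.8 to 337 on the KO arrays and 13.2 to 23.0 on the Het arrays. Il13 read 15.5 to 48.7 on KO arrays, against 11.01 to 11.8 on Het arrays, while Il5 stayed between 12.7 and 13.4 on all 6 arrays. Nfil3 and the brighter pair of Il4ra probe sets also had every KO array above every Het array, and the Gata3 groups overlapped. None of the 6 tested member probe sets passed the test across all probe sets (limma, adjusted p under 0.05), against 1.78% of all 29507 tested. For calls higher in KO the share over all tested probe sets was 1.11%. At an unadjusted p under 0.05, 4 of the 6 lay higher in KO, as did 9.24% of all tested probe sets.

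**Figure D1:**
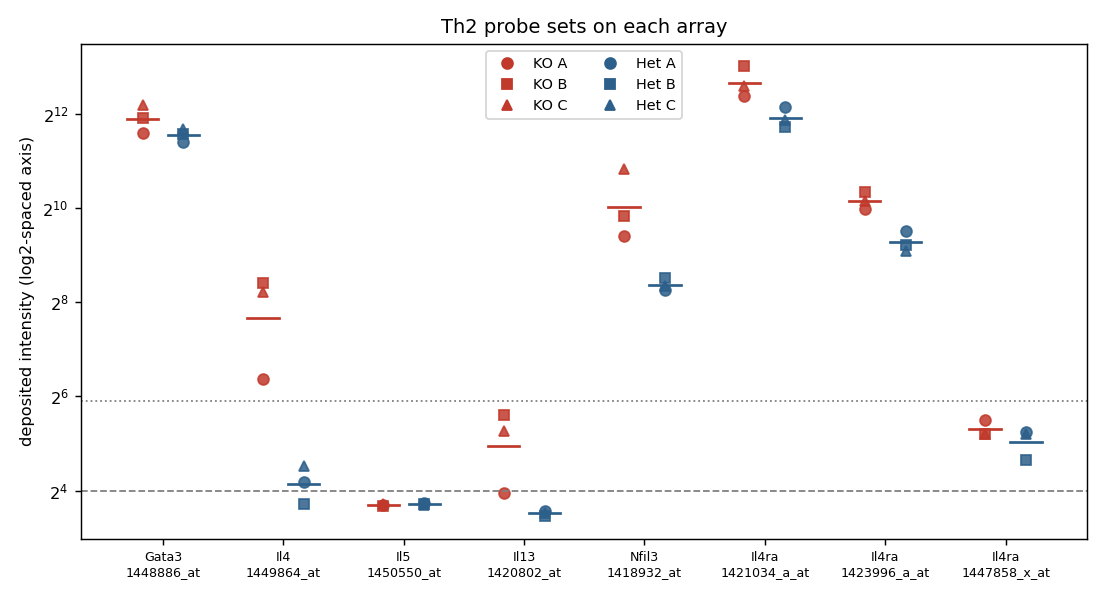
Deposited intensity (vertical axis, log2-spaced) of the 8 probe sets on each array, KO left and Het right for each, with a bar at the group's geometric mean. The dashed line is an intensity of 16, the level used as a filter, and the dotted line is the mean of the array medians. The KO readings of Il4 (82.8 to 337) sit above its Het readings (13.2 to 23.0), and Il5 lies near 13 on every array.

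Gata3, the gene of the factor that sets the Th2 programme, was high in both groups. Its probe set read 3077, 3832 and 4669 in KO A, B and C and 2719, 3020 and 3260 in Het A, B and C. KO A lay below Het C, so the groups overlapped. The difference was a log2 of 0.35 ± 0.17 (SE, n = 3 each; 95% interval -0.08 to 0.77; limma, adjusted p = 0.351). Leaving out KO C, the highest array, took it to 0.20, and leaving out KO A took it to 0.50.

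Nfil3 encodes a leucine zipper repressor that interleukin 4 induces in Th2 cells. It read 678, 904 and 1816 in KO A, B and C and 304, 366 and 324 in Het A, B and C. Even the lowest KO array, KO A, lay well above the highest Het array, and KO C stood apart at the top of its group. The means were 1133 ± 602 in KO and 332 ± 31.6 in Het (SD, n = 3 each), a log2 difference of 1.65 ± 0.37 (SE; 95% interval 0.74 to 2.56; limma, adjusted p = 0.0909). Of all tested probe sets 1.27% had a larger positive difference.

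Il4, the gene of the cytokine that both starts and marks Th2 cells, was close to the low end of the scale in Het. Its probe set read 82.8, 337 and 296.8 in KO A, B and C and 18.1, 13.2 and 23.0 in Het A, B and C. The groups were far apart, and KO A had the lowest of the KO readings by a wide margin. The log2 difference was 3.52 ± 0.58 (SE, n = 3 each; 95% interval 2.08 to 4.96), an 11.5-fold ratio of geometric means, with adjusted p = 0.0541 by limma. It missed the threshold, and without the filter adjusted p was 0.0752. All 3 KO arrays but only 2 Het arrays exceeded the filter's intensity of 16, so it entered the test through its KO readings, and 0.153% of tested probe sets had a larger positive difference. On every Het array Il4 lay below the array's median, the range where GCRMA's background step bears most on ratios. With 16 added to each intensity before log2, which damps such ratios, the difference was 2.71 (adjusted p = 0.0651). Without KO A it was 4.16 and passed (adjusted p = 0.0294), and without both B arrays it was 2.94 and did not (adjusted p = 0.201).

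Il13, the Th2 cytokine of mucus and smooth muscle responses, had the same order of KO arrays as Il4. It read 15.5, 48.7 and 38.6 in KO A, B and C and 11.8, 11.01 and 11.6 in Het A, B and C. KO B and KO C stood clear of the Het arrays, and KO A lay closest to them. Only those 2 arrays exceeded an intensity of 16, so Il13 was not tested in the filtered fit. Without the filter the log2 difference was 1.43 ± 0.44 (SE, n = 3 each; limma, adjusted p = 0.239). It passed in 1 of 10 alternatives, when KO A, the lowest KO array, was left out (1.92; limma, adjusted p = 0.0331). Without KO B it was 1.09 and without KO C 1.26, and neither passed (limma, adjusted p = 0.350 and 0.506).

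Il5, the eosinophil growth factor gene of the same locus, showed no such separation. It read 12.9, 12.7 and 13.1 in KO A, B and C and 13.4, 13.2 and 13.03 in Het A, B and C. These readings cover a narrow band below the filter in both groups. The unfiltered log2 difference was -0.03 ± 0.04 (SE, n = 3 each; limma, adjusted p = 0.787). At this intensity a small amount of Il5 RNA was not detectable, so absence is not shown.

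Il4ra encodes the receptor chain that binds interleukin 4 and, with another partner, interleukin 13. Its brightest probe set read 5320, 8206 and 6164 in KO A, B and C and 4518, 3386 and 3723 in Het A, B and C. The next brightest read 1008, 1301 and 1136 in KO and 726, 591 and 545 in Het. On both, KO B was the highest array and the groups did not overlap. The log2 differences were 0.75 ± 0.20 (SE, n = 3 each; limma, adjusted p = 0.126) and 0.89 ± 0.15 (limma, adjusted p = 0.0562). The dimmest probe set read 45.2, 36.7 and 36.9 in KO and 37.85, 25.2 and 36.7 in Het. Here the groups overlapped, with Het A above KO B and KO C, at a log2 difference of 0.27 ± 0.19 (limma, adjusted p = 0.508). All Il4ra probe sets thus had positive differences of unequal size.

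**Figure D2:**
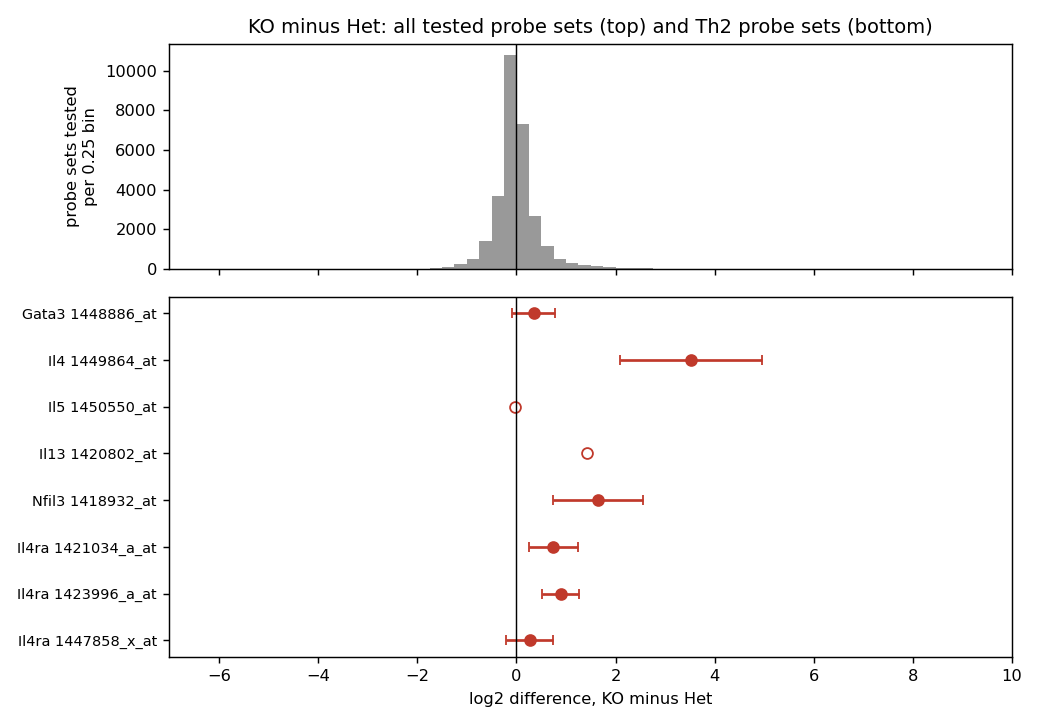
Top, number of tested probe sets per 0.25 bin of the log2 difference, KO minus Het. Bottom, the same difference for the 8 probe sets, with the 95% interval from limma (n = 3 per group) for the 6 tested and open circles, with no interval, for Il13 and Il5. Il4 lies at 3.52, far to the right of the bulk of probe sets, and Il5 at -0.03.

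All 6 tested member probe sets had a positive difference, with a median log2 of 0.82, against a median of -0.03 and 42.8% positive over all tested probe sets. Il13 and Il5 are not in these counts, and Il4 entered them through its KO readings. The members were chosen with earlier results of these data known, so the contrast with all probe sets is only a description. In 4 of the 6 every KO array lay above every Het array, as it did for 11.3% of all tested probe sets. The Il4ra probe sets measure the same RNA, so these are not separate observations. The adjusted p was most often above the threshold when settings were varied: Il4 passed in 3 of 15 alternatives (array weights, without KO A, and a filter at log2 above 6 that it met only through its KO arrays), the Il4ra probe set of middle brightness in 3 of 15, and Gata3, Nfil3 and the other Il4ra probe sets in 0.

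**Figure D3:**
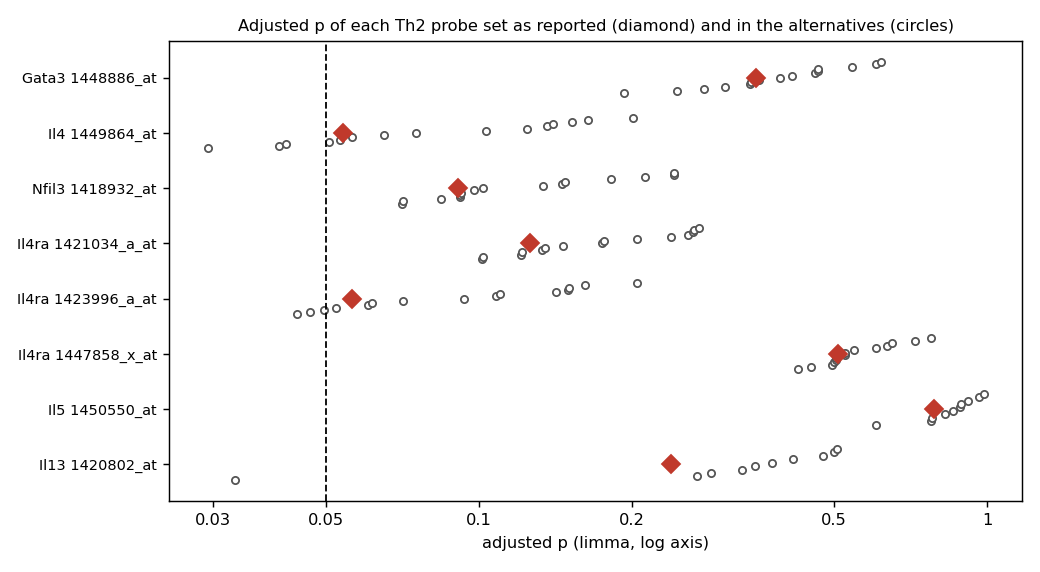
Adjusted p from limma (horizontal log axis) of each probe set as reported (diamond) and under each alternative (circles), with the threshold of 0.05 dashed. Il4 at 0.0541 and an Il4ra probe set at 0.0562 lie beside the threshold with circles on both sides of it, whereas Gata3 lies right of it under every alternative run.

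Il4, Il13 and Il5 lie in this order on mouse chromosome 11, with Rad50, a DNA repair gene, between Il13 and Il5. The promoters of these neighbouring genes, which share control elements, are shown only as a description. Each is 250 bases upstream of the most upstream RefSeq start (GRCm38.p6), in the direction of transcription. Capitals mark GGAAA, the core that NFAT factors bind, and GATAA, a core that GATA factors favour, on either strand (TTTCC and TTATC on the reverse).
Il4, chr11:53618666-53618915, minus strand: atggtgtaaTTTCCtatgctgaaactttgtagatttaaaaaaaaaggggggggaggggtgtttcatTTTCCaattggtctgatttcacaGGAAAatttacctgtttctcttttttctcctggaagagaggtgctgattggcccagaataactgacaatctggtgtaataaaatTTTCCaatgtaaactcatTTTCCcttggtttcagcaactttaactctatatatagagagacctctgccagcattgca
Il13, chr11:53634703-53634952, minus strand: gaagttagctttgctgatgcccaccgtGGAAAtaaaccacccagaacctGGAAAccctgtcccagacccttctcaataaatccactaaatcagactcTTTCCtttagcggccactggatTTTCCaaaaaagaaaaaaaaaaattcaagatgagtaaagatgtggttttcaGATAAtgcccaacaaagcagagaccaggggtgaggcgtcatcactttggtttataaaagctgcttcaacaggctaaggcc
Il5, chr11:53720544-53720793, plus strand: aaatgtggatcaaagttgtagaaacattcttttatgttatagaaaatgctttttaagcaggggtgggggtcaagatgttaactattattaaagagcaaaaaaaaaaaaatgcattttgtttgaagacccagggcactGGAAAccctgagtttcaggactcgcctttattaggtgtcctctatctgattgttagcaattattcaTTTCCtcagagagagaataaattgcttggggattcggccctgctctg
GGAAA matched 5 times in the Il4 window, 4 times in that of Il13 and 2 times in that of Il5, and 55.6% of 32851 RefSeq promoter windows of this length hold it at least once. GATAA matched 1 time in the Il13 window and 0 times in the others, against 22.6% of all windows. These shares count windows with at least 1 match, so they do not place the number of matches in a window. A match is only a description of these letters, and its relation to the readings was not tested.

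The other genes of the region differed widely in pattern. Of 14 listed neighbours on chromosome 11 with a probe set, 7 were tested, and 1 rose, 0 fell and 6 did not pass (limma), with a median log2 of 0.26. Over all 13280 genes tested by their brightest probe set 2.33% passed, and the median was -0.03. Without adjustment 2 listed genes lay higher in KO and 1 lower at p under 0.05 (limma), against 10.7% and 11.6% of all genes. The lower one, Ccni, was listed but lies on chromosome 5 and is not among the 7. Irf1, the gene of an interferon-induced factor and the next listed gene after Il5, rose to 8211, 9232 and 11213 in KO A, B and C, against 3500, 4885 and 4051 in Het A, B and C. All KO arrays were above all Het arrays, at a log2 difference of 1.21 ± 0.17 (SE, n = 3 each; limma, adjusted p = 0.0424, and 0.0574 without the filter). Rad50 read 1024, 1273 and 1087 in KO and 980, 1103 and 1134 in Het, groups that overlapped (log2 0.07; limma, adjusted p = 0.795). Pdlim4, an actin-associated protein gene named after its values were seen, read 466, 822 and 582 in KO and 110, 22.1 and 107 in Het (log2 3.25; limma, adjusted p = 0.0803). Il3, a further cytokine gene of the region, was not tested and read 6.75, 12.6 and 12.8 in KO and 6.42 to 6.62 in Het. It too was higher on KO B and KO C than on KO A.

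**Figure D4:**
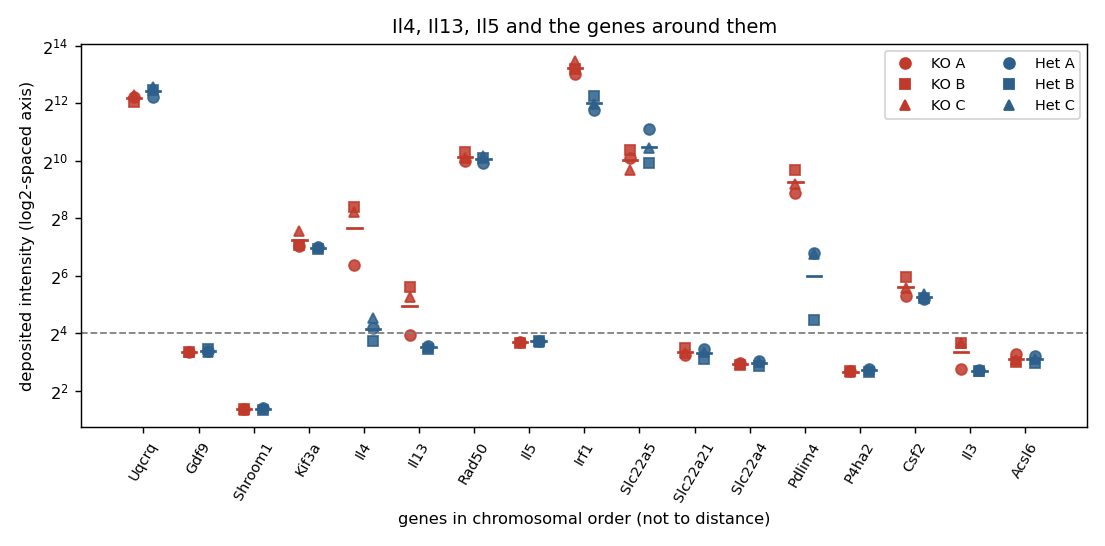
Deposited intensity (log2-spaced axis) of Il4, Il13, Il5 and the listed neighbours with a probe set, in chromosomal order but not to distance, KO left and Het right with a bar at the group's geometric mean. The dashed line is an intensity of 16. Rad50 lies near 1100 in both groups between Il13 and Il5, and Irf1 has every KO array (8211 to 11213) above every Het array (3500 to 4885).

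The list of interleukin 4 receptor signalling genes also holds the receptor chain genes Il13ra1 and Il13ra2. It gave 0 calls among 11 tested (limma; 2.33% of all genes passed), with a median log2 of -0.00. Without adjustment 4 lay higher in KO and 1 lower at p under 0.05, against 10.7% and 11.6% of all genes. Jak3, the kinase of the shared gamma chain, read 1194, 1661 and 1295 in KO and 870, 693 and 882.5 in Het (log2 0.76 ± 0.17; limma, adjusted p = 0.0894). Cish, a STAT5-induced inhibitor, read 5810, 7116 and 5577 in KO and 4367, 3902 and 4346 in Het (log2 0.55 ± 0.12; limma, adjusted p = 0.0906). Both had their highest reading in KO B, as the brighter Il4ra probe sets did. Stat6 itself gave log2 -0.22 and -0.17 on its 2 probe sets (limma, adjusted p = 0.384 and 0.573).

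Other Th2 transcription factors gave 0 calls among 19 tested (limma; 2.33% of all genes passed), with a median log2 of 0.23. Without adjustment 6 of the 19 lay higher in KO and 1 lower at p under 0.05, against 10.7% and 11.6% of all genes. Bhlhe40, a repressor that licenses cytokine production, read 2670, 2760 and 10300 in KO A, B and C and 586, 1016 and 1262 in Het (log2 2.22 ± 0.61; limma, adjusted p = 0.137). KO C stood far above the rest, as it did for Nfil3. Satb1, a chromatin organiser of the Th2 cytokine locus, gave log2 0.80 (limma, adjusted p = 0.148) on its brightest probe set. The next in brightness gave 0.68, 0.99 and 0.55 (limma, adjusted p = 0.0934, 0.0803 and 0.397), and a dim one gave -0.27. Maf had positive differences on all 6 of its tested probe sets, from 0.08 to 0.45, and none passed.

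Among 11 tested repressors of the Th2 programme 2 rose, 0 fell and 9 did not pass (limma; 2.33% of all genes passed), with a median log2 of 0.18. Without adjustment 3 lay higher in KO and 3 lower at p under 0.05, against 10.7% and 11.6% of all genes. The genes that rose were Tbx21, which encodes T-bet, the master factor of Th1 cells, and read 1698, 2925 and 1668 in KO and 383, 565 and 454 in Het (log2 2.13; limma, adjusted p = 0.0317), and Runx3, its partner in silencing Il4. Runx3 rose by log2 1.24 (limma, adjusted p = 0.0232) on its brighter probe set and gave 0.31 on a dim one. Every KO array lay above every Het array for Tbx21 and for the brighter Runx3 probe set, while the dim Runx3 groups overlapped. Sox4, a factor that holds GATA3 back and is named after its values were seen, read 1252, 613 and 1717 in KO and 4387, 2600 and 6795 in Het, with every KO array below every Het array (log2 -1.96; limma, adjusted p = 0.12). Dimmer tested Sox4 probe sets gave -0.99 and -1.90, also with every KO array below every Het array, and -0.03 with groups that overlapped. None of them passed (limma, adjusted p = 0.183, 0.214 and 0.861). Eomes, also named after its values were seen, went the other way. Its brighter and dimmer probe sets gave log2 2.93 and 1.55 (limma, adjusted p = 0.102 and 0.151), both with every KO array above every Het array. Ifng, the Th1 cytokine gene, read 663, 751 and 1104 in KO and 241, 204 and 175 in Het (limma, adjusted p = 0.0263), with means of 839 ± 233 in KO and 206 ± 33.0 in Het (SD, n = 3 each).

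Of 12 tested genes in a list of other Th2 cytokines and surface proteins, 2 rose, 0 fell and 10 did not pass (limma; 2.33% of all genes passed), with a median log2 of 0.25. The list also holds Penk and Epas1, which are neither. Without adjustment 3 of the 12 lay higher in KO and 1 lower at p under 0.05, against 10.7% and 11.6% of all genes. Il10, a cytokine of Th2 and regulatory cells, read 755, 746 and 1624 in KO and 74.5, 137 and 182 in Het (log2 2.98; limma, adjusted p = 0.0462). Penk, a precursor gene of opioid peptides, read 14163, 10672 and 13795 in KO and 783, 1539 and 2447 in Het (log2 3.16; limma, adjusted p = 0.0364). Without the filter on dim probe sets neither passed (limma, adjusted p = 0.0646 for Il10 and 0.0534 for Penk). Epas1, a hypoxia factor named after its values were seen, read 374, 3097 and 4981 in KO A, B and C and 43.2, 45.1 and 70.15 in Het (log2 5.12; limma, adjusted p = 0.0695). It shares with Il4 and Il13 the low reading in KO A. Il9, a Th2 and Th9 cytokine gene, was not tested and read 8.25 to 8.35 in KO and 7.91 to 8.66 in Het.

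The list of interleukin 33 receptor signalling genes also holds the receptor chain gene Il1rap. Of its 8 tested genes 0 passed (limma; 2.33% of all genes passed), with a median log2 of 0.09. Without adjustment 2 lay higher in KO and 0 lower at p under 0.05, against 10.7% and 11.6% of all genes. Traf6, a ubiquitin ligase of that pathway, gave log2 0.69 (limma, adjusted p = 0.0942). Myd88, an adaptor of the pathway, gave 0.28 (limma, adjusted p = 0.247). Of all 68 genes tested in these lists 5 passed, or 7.35%, against 2.33% of all 13280 genes. All 5 rose, while over all genes 182 rose and 127 fell. The lists were chosen with earlier results of these data known, so this contrast cannot test whether the pathway changed. With any 1 array left out, 0 or 1 listed genes passed. A listed gene, Ccni, lies on chromosome 5 and not beside the cytokines, and it is counted among the 68.

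**Figure D5:**
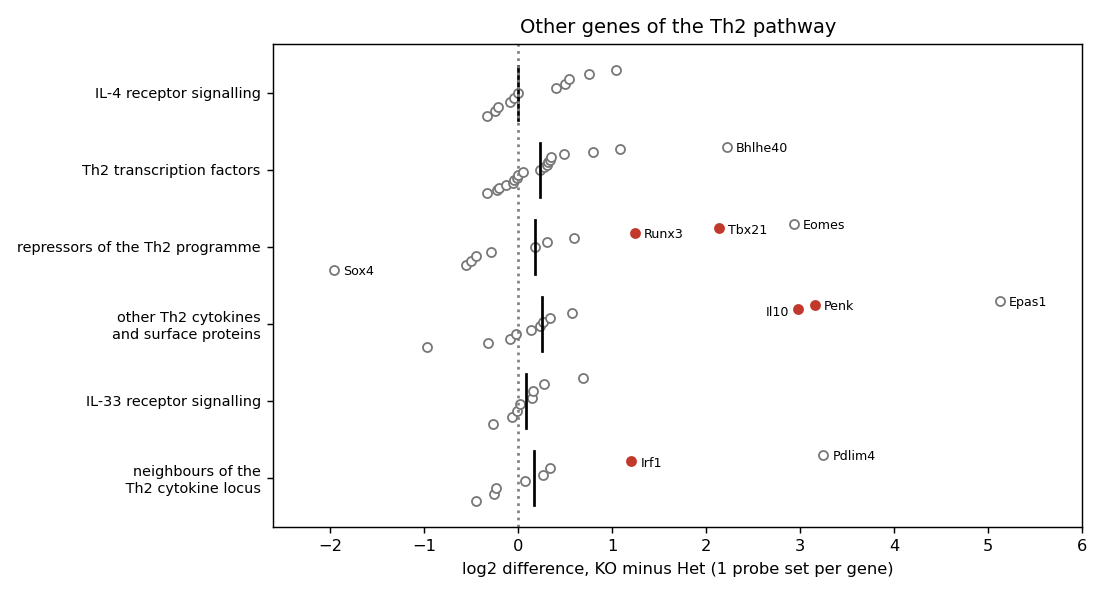
Log2 difference, KO minus Het, of the tested genes of 6 lists (1 brightest probe set per gene), with filled circles for genes past the test, open circles for others and a bar at each list's median. The 5 filled genes, Tbx21, Runx3, Il10, Penk and Irf1, lie right of 0, and Epas1 at 5.12 is the open circle farthest right. The lowest list contains Ccni, which is not a neighbour.

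Across the 6 arrays most members other than Il5 followed Il4, as a description in which the 2 groups set much of the likeness. Pearson's r of log2 intensities with Il4 was 0.96 for Il13, 0.93 and 0.94 for the brighter Il4ra probe sets, 0.92 for Nfil3 and 0.84 for Gata3. The dim Il4ra probe set had 0.44 and Il5 had -0.71. The genes most like Il4 were Apaf1, Zc3h7a and Atp6v1e1 (r of 0.997, 0.997 and 0.995), and 215 genes had r over 0.95 with it. Most like Il13 were Ccl8, Gpr183 and Ube2a (0.999, 0.998 and 0.994). Ccl8, a chemokine gene, read 162.4, 11044 and 3858 in KO A, B and C and 45.56, 43.3 and 44.53 in Het A, B and C. KO B was highest and KO A lowest of the KO arrays for both Ccl8 and Il13. Most like Nfil3 were Cd274, the gene of PD-L1 (0.997), Etv6 (0.995) and Strap (0.991). Most like Il4ra were Otud6b, Phkg1 and Auh (0.995, 0.994 and 0.993), and most like Gata3 Sec23b, Fchsd2 and Nup98 (0.998, 0.992 and 0.988). For Il5, which did not leave its band, Lemd3, Tmem263 and Zkscan6 led (0.993, 0.984 and 0.978).

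Other cells can make these cytokines, and their markers were read beside them. The summed intensity of 13 mast cell and basophil markers was 1269 to 2213 in KO and 966 to 1361 in Het, most of it from Gata1 and Kit. The defining markers Mcpt8, Cpa3, Fcer1a and Ms4a2 read 5.26 to 8.75 on KO arrays and 5.43 to 9.13 on Het arrays, at the low end of the scale. Summed eosinophil markers (4 genes) read 24.4 to 26.3 in KO and 22.5 to 26.2 in Het. Arg1, a gene of innate lymphoid cells and of macrophages exposed to interleukin 4, read 7.18, 224 and 101.5 in KO A, B and C and 7.71 to 9.01 in Het. As for Il4 and Il13, KO B was highest and KO A lowest of the KO arrays, but KO A lay below every Het array. Of the other innate lymphoid markers with a probe set, Rora gave log2 -0.56, Il17rb -0.09 and Klrg1 1.19, and none passed (limma). Summed myeloid markers (5 genes) read 404, 1643 and 625 in KO and 231, 550 and 276 in Het, with Lyz2 at 232, 1408 and 441 in KO and 50.6, 381 and 97.4 in Het. Csf1r read 156 to 174 in KO and 152 to 163.5 in Het, Itgam and Cd14 lay below 6 on all arrays, and Itgax read 51.95 in KO B and 8.05 to 8.43 on the other arrays. Their part in the Il4 and Il13 readings was not tested.

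The arrays with the letter B stood apart in both groups for other lineages. Summed B cell markers (5 genes) read 2100 in KO B and 1690 in Het B, against 546 to 869 on the other arrays. Summed CD8 markers (2 genes) read 4415 in KO B and 2257 in Het B, against 636 to 909. Summed NK cell markers (3 genes) read 1728 in KO B and 617 in Het B, against 122 to 143. Il4 had its highest reading, 337, in KO B and its lowest, 13.2, in Het B. Its relation to these markers was not tested. Tbx21 and the brighter Eomes probe set were highest on the B array of each group, and their relation to these markers was not tested either. Foxp3 read 5453, 9417 and 5420 in KO and 9960, 8945 and 9769 in Het (log2 -0.55; limma, adjusted p = 0.285). It was near the Het level in KO B and lower in KO A and KO C, and its relation to Il4 was not tested. Other regulatory T cell markers differed in direction. Ctla4 gave log2 0.76, Il2ra 0.67 and Tnfrsf18 0.20, each with every KO array above every Het array. Ikzf2 gave -0.24, with every KO array below every Het array, and none of them passed (limma). Summed regulatory T cell markers (5 genes, Foxp3 among them) read 70490 to 76249 in KO and 60365 to 67252 in Het. The Dicer1 probe sets gave log2 -0.03 and -0.52, neither past the test (limma, adjusted p = 0.891 and 0.145), and since their positions in the gene were not used here they do not check the genotype. Summed T cell markers (5 genes) read 85845 to 98144 in KO and 99405 to 107515 in Het.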

How the data were processed

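Per the labels, the authors normalized the deposited intensity values with GCRMA, and the software version was not given in the sources used here. GCRMA's background step depends on probe sequence and enlarges ratios of dim probe sets. The values span 1.23 to 170023 and are linear, so log2 was taken of the deposited values. Excluded were 64 control probe sets and 1 probe set lacking values. The test was limma 3.58.1 (R 4.3.3; lmFit and eBayes, two-sided) of KO minus Het on 29507 probe sets with log2 above 4 on at least 3 arrays, with Benjamini-Hochberg adjustment over all of them and a threshold of 0.05. The procedure was tested on simulated data. Probe sets were named from the platform annotation where it gives a single symbol. Sequences came from RefSeq tables, and plots were drawn with matplotlib 3.10.9.

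The members and gene lists were chosen with earlier results of these data known. The text names every member probe set, up to 5 genes per list past the test (or else the 2 with the smallest p) and the 3 genes most like each member by Pearson's r. Stat6, Maf, Rad50, Pdlim4, Il3, Il9, Epas1, Sox4, Eomes, Ifng, Arg1 and other marker genes were added after their values were seen. Alternatives were other filters, quantile normalization, median centring, an offset of 16, an intensity trend, array weights, a replicate block and leaving out arrays.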

Additional observations from a re-analysis of the deposited data

How the results depend on the processing

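All tested member probe sets kept a positive difference under every alternative run: Gata3 between 0.20 and 0.50, Nfil3 between 1.24 and 1.95, Il4 between 2.71 and 4.16, the 2 brighter Il4ra probe sets between 0.48 and 1.01, and the dimmest between 0.08 and 0.37. Without the filter Il13 ranged from 0.81 to 1.92 and Il5 from -0.04 to -0.01. The number of member probe sets past the test was 0 as reported, 2 with a stricter filter (log2 above 6, which Il4 met only through its KO arrays), 1 with quantile normalization, 2 with array weights, and 0 to 1 when arrays were left out. The probe sets concerned were Il4 and the Il4ra probe set of middle brightness. The 525 calls over all probe sets became 957 with array weights, and 0 to 176 when arrays were left out. The 5 pathway genes became 2 without a filter and 0 to 1 when arrays were left out. With the letter as a replicate block 0 probe sets passed over the table (limma; 5365 at an unadjusted p under 0.05), hence 0 of the 5 pathway genes, at 2 fewer residual degrees of freedom. Il4 then had adjusted p = 0.125. Deviations from the group mean of same-letter arrays correlated at 0.283, -0.171 and 0.0118 (A, B and C). KO A was closest to Het A, KO B was closest to Het C (0.374), and KO C lay between -0.0326 and 0.0179 with every Het array. The labels do not say that letters mark pairs, and the main fit did not take them as pairs. These values do not settle it, and the B arrays shared high B cell and CD8 marker sums. No scaling moved the median difference of all tested probe sets by over 0.1. The dimness of Il4 in Het, and of Il13 and Il5, limits their ratios.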
